A study of Homo sapiens with 4 samples.

Results

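The genes described here come from families that write, erase or read acetyl groups on histone lysines, though several act mainly on other substrates. The genes were chosen by name and not by a cut on measured values, though with earlier results of these data known. They comprise 54 genes: 11 zinc-dependent histone deacetylases, 7 sirtuins, 12 acetyltransferases and coactivators, and 24 reader or bromodomain genes outside the BET family. All 54 had 1 row in each file, out of 60487 genes per file. A level of at least 1 FPKM (fragment counts scaled to transcript length and to library size) in at least 1 library was reached by 52 of them. SIRT4 and CECR2 stayed below it.

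Poly(A) RNA was measured in HCC1937, an established human breast cancer cell line that carries no functional BRCA1. The wtBRCA1 cells carry restored wild-type BRCA1, and the vector cells carry the empty vector and are labelled BRCA1 -/-. Each of these lines was given OTX-015 (birabresib), which keeps BET bromodomains from binding acetylated lysine, or its solvent DMSO. The groups are wtBRCA1 with OTX-015, wtBRCA1 with DMSO, vector with OTX-015 and vector with DMSO. Each is 1 library, and there are no replicates. The sources used here give neither dose nor time, nor whether each line is 1 clone.

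Acetylation neutralises the charge of histone tails and creates docking sites for bromodomains and YEATS domains. Acetyltransferases of the p300/CBP, GCN5 and MYST families add the mark, using acetyl-CoA. Zinc-dependent deacetylases and NAD-dependent sirtuins remove it, the class I enzymes mostly inside corepressor complexes. BET proteins are the readers that OTX-015 blocks, and the readers described here carry bromodomains or YEATS domains and belong mostly to remodelling, coactivator and corepressor complexes.

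BRCA1 was listed at 2712 FPKM in wtBRCA1 cells against 40.8 FPKM in vector cells under OTX-015, and at 171 against 37.2 FPKM under DMSO. Within wtBRCA1 cells BRCA1 was thus far higher with OTX-015 than with DMSO, while its 2 levels in vector cells were close. The part of this difference in the OTX-015 responses of wtBRCA1 cells was not tested. The summed FPKM per library ran from 909314 to 1496107 and the files hold no counts, so depth is unknown. The share of the 10 highest genes was 33.8% with OTX-015 against 15.3% with DMSO in wtBRCA1 cells, and 39.2% against 17.4% in vector cells. Of the epithelial markers EPCAM, CDH1, KRT8, KRT18 and KRT7, each was at 101 FPKM or more in every library, and their sum was 6058 against 25845 FPKM in wtBRCA1 and vector cells under OTX-015 and 5018 against 11092 FPKM under DMSO. Most of the sum was KRT8, at 4476 against 23339 FPKM under OTX-015 and 3185 against 8160 FPKM under DMSO, whereas CDH1 was at 274 against 242 FPKM and 105 against 101 FPKM. Summed over their markers, leukocyte, fibroblast and endothelial genes reached at most 9.73, 9.78 and 7.03 FPKM in any library. CD3E, COL1A2, PDGFRB, DCN and VWF were at 0 in all 4, and CD14 was at 5.62 against 0 FPKM in wtBRCA1 and vector cells under OTX-015 and at 9.51 against 0.109 FPKM under DMSO. The part of these markers in the differences between the lines was not tested.

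Levels were compared as FPKM, which is per length of transcript. TRIM28, a corepressor bound by KRAB zinc finger proteins, had the highest level of the set in every library, between 853 and 2499 FPKM. HDAC1, HDAC2, HDAC3 and HAT1 ran from 128 to 398 FPKM, and the only other gene above 128 FPKM in any library was SIRT2, at 169 FPKM in wtBRCA1 cells with OTX-015. In contrast, KAT6B was between 0.36 and 1.32 FPKM, SIRT4 between 0.381 and 0.549 FPKM, and CECR2 was listed at 0 in both OTX-015 libraries and at 0.188 and 0.107 FPKM in the wtBRCA1 and vector DMSO libraries. The levels of all 54 genes summed to 4002 FPKM with OTX-015 against 2955 FPKM with DMSO in wtBRCA1 cells, and to 4398 against 2661 FPKM in vector cells. TRIM28 alone accounted for most of each gap. The summed FPKM of the whole library was also higher with OTX-015, at 1477103 against 962378 in wtBRCA1 cells and 1496107 against 909314 in vector cells. Both kinds of sum rest largely on a few high genes, so they do not show whether the 54 genes rose as a set. The median level of the 54 genes was 14.4 FPKM with OTX-015 against 15.7 FPKM with DMSO in wtBRCA1 cells, and 15.1 against 14.8 FPKM in vector cells. Over all symbols tested the median was 7.14 against 7.02 FPKM and 7.17 against 6.89 FPKM.

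**Figure D1:**
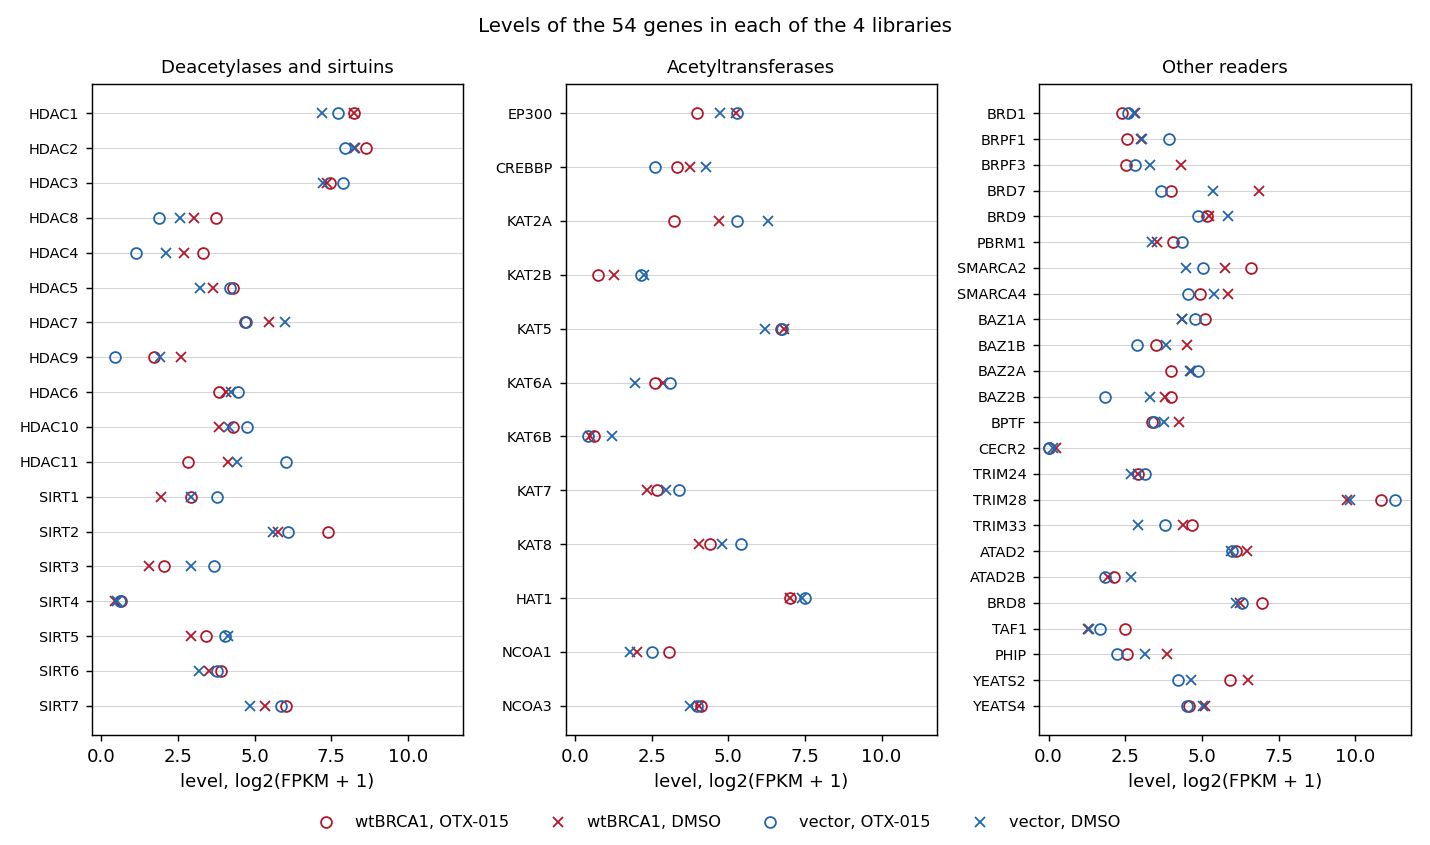
Level of each of the 54 genes as log2(FPKM + 1) (x axis) in the 4 libraries, 1 point per library, with circles for OTX-015, crosses for DMSO, red for wtBRCA1 and blue for vector cells. TRIM28 lies furthest right, between 853 and 2499 FPKM, and the DMSO crosses of BRD7 lie to the right of both OTX-015 circles.

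The first comparison asked how OTX-015 affected these genes in both lines. Only 2 of the 52 tested genes passed the test, TRIM28, which rose, and BRD7, which fell. The test was limma on log2(FPKM + 1) with line and treatment as terms, and a gene was called at a Benjamini-Hochberg adjusted p under 0.05 over all 18304 symbols tested. Over all symbols 3.57% rose and 2.58% fell, so 1 of 52 in each direction is near or below the background. The fit has 1 residual degree of freedom per gene, which holds the difference between the lines' responses, and 8.39 prior degrees of freedom from all genes. Its p thus sets the mean effect mostly against a spread pooled over genes. It does not measure the spread between repeated cultures.

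BRD7, a bromodomain subunit of the PBAF form of the SWI/SNF remodeller (ENSG00000166164, chromosome 16, 50313487 to 50368934, minus strand, GENCODE 29 on hg38), was at 15.1 FPKM with OTX-015 against 116 FPKM with DMSO in wtBRCA1 cells. In vector cells it was at 11.6 against 40.4 FPKM. Both OTX-015 libraries lay below both DMSO libraries, and the 2 OTX-015 levels were closer to each other than the 2 DMSO levels. BRD7 fell by 2.29 ± 0.37 on the log2 scale (SE, limma adjusted p = 0.0117), with separate differences of -2.86 in wtBRCA1 cells and -1.72 in vector cells. Among all tested symbols it stood at percentile 64.4 with OTX-015 against 92.1 with DMSO in wtBRCA1 cells, and at 59.4 against 81.4 in vector cells. ADCY7, which overlaps BRD7 on the opposite strand, was at 4.49 against 16.2 FPKM in wtBRCA1 cells and 4.72 against 8.80 FPKM in vector cells, and did not pass (limma adjusted p = 0.1). No source used here says whether strand was used in the counting, so the part of ADCY7 reads in these values was not tested. Of the 7 protein-coding genes within 1 Mb of BRD7, 5 were higher and 2 lower, and none passed the test.

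TRIM28 (ENSG00000130726, chromosome 19, 58544091 to 58550722, plus strand) was at 1826 FPKM with OTX-015 against 853 FPKM with DMSO in wtBRCA1 cells, and at 2499 against 907 FPKM in vector cells. Both OTX-015 libraries lay above both DMSO libraries. TRIM28 rose by 1.28 ± 0.18 log2 (SE, limma adjusted p = 0.00707). It stood between percentiles 99.4 and 99.8 of all symbols in the 4 libraries. Quantile normalization ended both calls, with a limma adjusted p of 0.0762 for TRIM28, whose difference became 0.81, and 0.0545 for BRD7, at -2.36. Without the mean-variance trend in the fit the adjusted p was 0.189 for TRIM28 and 0.163 for BRD7. The other TRIM readers were TRIM33, a partner of SMAD signalling, and the nuclear receptor cofactor TRIM24. TRIM33 was at 24.3 against 19.8 FPKM in wtBRCA1 cells and 12.8 against 6.62 FPKM in vector cells. TRIM24 was between 5.51 and 7.76 FPKM in all libraries.

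The 300 bases around the RefSeq start site (250 before and 50 after, GRCh38.p14) are shown for BRD7, called for OTX-015, and for 3 genes called between the lines below. Capitals mark the matches to any of 7 promoter motifs on either strand: the TATA box TATAAA, the CCAAT box, the GC box GGGCGG, the E-box CACGTG, the CRE core TGACGT, the ETS site CCGGAAG and the NRF1 core GCATGCGC. The windows are chr16:50368939-50369238 for BRD7, chr17:42121318-42121617 for KAT2A and chr11:236882-237181 for SIRT3, all on the minus strand, and chr9:2015097-2015396 for SMARCA2 on the plus strand. The SMARCA2 window lies 35057 bases inside the gene as GENCODE 29 gives it, at a later start site. That site is 129 bases from the edge of the locus the authors listed for SMARCA2. The other 3 start sites lie within 54 bases of the GENCODE start. The window of YEATS2, also called between the lines, lies 12421 bases inside its gene and is not shown, but it is counted below.
BRD7: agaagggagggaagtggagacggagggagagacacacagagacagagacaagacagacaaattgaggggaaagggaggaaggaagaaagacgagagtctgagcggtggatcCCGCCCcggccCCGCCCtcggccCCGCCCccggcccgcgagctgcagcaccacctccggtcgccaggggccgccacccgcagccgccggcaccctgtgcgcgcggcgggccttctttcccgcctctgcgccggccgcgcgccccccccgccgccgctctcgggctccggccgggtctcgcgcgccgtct
KAT2A: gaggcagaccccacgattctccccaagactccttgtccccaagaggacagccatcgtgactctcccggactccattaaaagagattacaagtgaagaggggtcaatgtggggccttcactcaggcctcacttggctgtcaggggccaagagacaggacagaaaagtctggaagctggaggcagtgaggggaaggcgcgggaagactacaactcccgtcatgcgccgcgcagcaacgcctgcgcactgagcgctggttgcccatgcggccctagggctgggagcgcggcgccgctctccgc
SIRT3: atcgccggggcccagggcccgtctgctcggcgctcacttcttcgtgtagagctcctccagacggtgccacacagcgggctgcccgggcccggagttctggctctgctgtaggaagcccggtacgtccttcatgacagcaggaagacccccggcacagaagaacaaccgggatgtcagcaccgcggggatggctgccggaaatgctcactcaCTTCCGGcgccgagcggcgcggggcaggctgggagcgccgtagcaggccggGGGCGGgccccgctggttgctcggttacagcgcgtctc
SMARCA2: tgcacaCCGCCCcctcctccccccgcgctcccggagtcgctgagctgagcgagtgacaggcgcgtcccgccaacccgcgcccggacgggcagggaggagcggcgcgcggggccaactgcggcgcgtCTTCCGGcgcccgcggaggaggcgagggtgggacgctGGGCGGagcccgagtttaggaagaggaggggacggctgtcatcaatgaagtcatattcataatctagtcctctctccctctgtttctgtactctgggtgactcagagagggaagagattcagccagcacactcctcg

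BRD7 held 3 GC boxes, SMARCA2 held 2 GC boxes and 1 ETS site, SIRT3 held 1 of each, and KAT2A held none of the 7 motifs. Of the 54 genes, 45 had a window in the RefSeq table, and 1 window per gene was used. All windows in the comparison below were used as they stand, without reduction to 1 per gene or to a gene type. A GC box was found in 64.4% of these 45, beside 45% of all 35116 windows, and an ETS site in 20%, beside 10.3%. The CCAAT box was found in 24.4% beside 34.6%, the E-box in 6.67% beside 7.26%, the CRE core in 11.1% beside 7.98% and the NRF1 core in 4.44% beside 3.05%. The TATA box was found in none of the 45, beside 11.5% of all windows. The median GC content was 67.3% over the 45 windows and 58.7% over all. A match describes these letters only, and binding was not measured.

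The other SWI/SNF readers did not pass for OTX-015. SMARCA2 and SMARCA4 are the alternative ATPases of the remodeller, and they differed in opposite directions with treatment. SMARCA2 was at 95.7 FPKM with OTX-015 against 52.9 FPKM with DMSO in wtBRCA1 cells and at 31.7 against 21.1 FPKM in vector cells (0.70 ± 0.31 log2, SE, limma adjusted p = 0.215). SMARCA4 was at 30.0 against 57.0 FPKM in wtBRCA1 cells and 22.5 against 41.1 FPKM in vector cells (-0.87 ± 0.31 log2, limma adjusted p = 0.136). Their ratio within a library, which no size factor per library can move, was 3.19 with OTX-015 against 0.93 with DMSO in wtBRCA1 cells, and 1.41 against 0.513 in vector cells. PBRM1, a PBAF subunit with several bromodomains, was at 15.5 against 10.5 FPKM and 19.6 against 9.38 FPKM in the same order of lines. BRD9, of the non-canonical SWI/SNF complex, was at 35.2 against 36.3 FPKM in wtBRCA1 cells and 28.6 against 56.4 FPKM in vector cells. PBRM1 is overlapped by GNL3 (up to 151 FPKM) and BRD9 by TRIP13 (up to 118 FPKM), both on the opposite strand, and the files also give SPCS1 and NT5DC2 the locus of PBRM1, so reads may be split with those genes.

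Among the acetyltransferases 0 of 12 passed the limma adjusted p of 0.05 for OTX-015. KAT2A, also called GCN5, which acetylates histone H3 in the SAGA and ATAC complexes, came nearest. It was at 8.31 FPKM with OTX-015 against 24.8 FPKM with DMSO in wtBRCA1 cells and at 38.2 against 77.6 FPKM in vector cells (-1.24 ± 0.33 log2, SE, limma adjusted p = 0.059). It passed over protein-coding genes alone (limma adjusted p = 0.0417) and with no filter on low values (0.0041). KAT2A and BRD7 were the genes at least 1 log2 unit lower in both lines, 2 of 52 beside 4.43% of all symbols, and TRIM28 was the 1 gene that much higher in both, beside 4.58%. KAT2B (PCAF), the paralogue of KAT2A, was at 0.686 against 1.41 FPKM in wtBRCA1 cells and at 3.5 against 3.72 FPKM in vector cells.

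EP300 and CREBBP, the paired coactivators that acetylate histone H3 at enhancers, gave unlike differences. EP300 was at 14.9 FPKM with OTX-015 against 37.2 FPKM with DMSO in wtBRCA1 cells, and at 37.9 against 25.7 FPKM in vector cells. CREBBP was at 9 against 12.6 FPKM in wtBRCA1 cells and at 5.17 against 18.2 FPKM in vector cells. Within a library, EP300 over CREBBP was 1.66 with OTX-015 against 2.95 with DMSO in wtBRCA1 cells and 7.33 against 1.41 in vector cells. EP300 thus gave log2 differences of -1.26 in wtBRCA1 and 0.54 in vector cells, and CREBBP of -0.44 and -1.64. Neither passed (limma adjusted p = 0.672 and 0.159).

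The MYST family was led by KAT5 (Tip60), the NuA4 acetyltransferase of histones H4 and H2A. KAT5 was at 104 FPKM with OTX-015 against 111 FPKM with DMSO in wtBRCA1 cells and 108 against 73.1 FPKM in vector cells, and it shares its locus with RNASEH2C at up to 275 FPKM. KAT8 (MOF), which acetylates histone H4 in the MSL and NSL complexes, was at 20.1 against 15.4 FPKM and 41.8 against 26.8 FPKM. KAT7 (HBO1) was at 5.34 against 4.09 FPKM and 9.58 against 6.77 FPKM. KAT8 and KAT7 were thus slightly higher with OTX-015 in both lines, without passing the test. KAT6A (MOZ) was at 5.18 against 6.27 FPKM in wtBRCA1 cells and 7.61 against 2.88 FPKM in vector cells. HAT1, which acetylates newly made histone H4, had nearly equal levels, 129 against 128 FPKM in wtBRCA1 cells and 180 against 168 FPKM in vector cells. The nuclear receptor coactivators NCOA1 and NCOA3 were at 7.38 against 3.03 and 16.4 against 15.7 FPKM in wtBRCA1 cells, and at 4.77 against 2.44 and 14.8 against 12.5 FPKM in vector cells.

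Of the 17 deacetylases and sirtuins tested, 0 passed the limma adjusted p of 0.05 for OTX-015. The class I enzymes HDAC1, HDAC2 and HDAC3, catalytic subunits of the SIN3, NuRD, CoREST and NCoR complexes, were the most abundant erasers. HDAC1 was at 302 FPKM with OTX-015 against 305 FPKM with DMSO in wtBRCA1 cells and 208 against 147 FPKM in vector cells. HDAC2 was at 398 against 311 FPKM and 246 against 305 FPKM, and HDAC3 at 177 against 163 FPKM and 236 against 151 FPKM, in the same order of lines. The 3 genes therefore gave log2 differences between -0.31 and 0.64 in these pairs. HDAC8, which also acts on cohesin, was at 12.5 against 7.21 FPKM in wtBRCA1 cells and 2.72 against 4.97 FPKM in vector cells.

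Class IIa enzymes, which shuttle between nucleus and cytoplasm and bind MEF2 factors, differed among themselves. HDAC7 was at 24.7 FPKM with OTX-015 against 42.9 FPKM with DMSO in wtBRCA1 cells and at 25.1 against 62.6 FPKM in vector cells (-1.03 ± 0.32 log2, SE, limma adjusted p = 0.0962). RP5-1057I20.4, an antisense transcript that overlaps HDAC7, was at 2.65 against 16.7 FPKM and 7.44 against 25.4 FPKM, and fell (-1.96 log2, limma adjusted p = 0.0198). The part of its reads in the HDAC7 values was not tested. HDAC9 was at 2.33 against 5.01 FPKM and 0.382 against 2.81 FPKM, and HDAC5 at 18.6 against 11.6 FPKM and 17.2 against 8.42 FPKM, in the same order of lines. HDAC7 and HDAC9 were lower in both lines and HDAC5 higher in both, and none passed. HDAC4 was at 8.97 against 5.53 FPKM in wtBRCA1 cells and 1.19 against 3.30 FPKM in vector cells.

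HDAC11, the class IV enzyme, which removes long fatty acyl groups, had the most unlike responses in the set. It was at 6.09 FPKM with OTX-015 against 16.4 FPKM with DMSO in wtBRCA1 cells, and at 64.8 against 20.7 FPKM in vector cells. The levels under DMSO were close and those under OTX-015 were 10.7-fold apart, lower in wtBRCA1 cells. HDAC6, the tubulin deacetylase, stayed between 13.3 and 20.8 FPKM. HDAC10, a polyamine deacetylase, was at 18.5 against 13.4 FPKM in wtBRCA1 cells and 26.1 against 17.1 FPKM in vector cells.

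Sirtuins were mostly higher with OTX-015, with no call among the 6 tested. SIRT1, SIRT2, SIRT3, SIRT6 and SIRT7 were higher in both lines, 5 of 6, while 33% of all symbols were higher in both. The median effect over the 6 was 0.73 log2, against 0.03 over all symbols. In the other small role groups the median ran from -0.70 log2 (EP300, CREBBP, KAT2A and KAT2B) to 0.57 log2 (the TRIM readers). These medians were not tested. SIRT2, a mainly cytoplasmic enzyme, was at 169 FPKM with OTX-015 against 53.9 FPKM with DMSO in wtBRCA1 cells and 66.6 against 48.0 FPKM in vector cells (1.05 ± 0.34 log2, SE, limma adjusted p = 0.109). SIRT7, the nucleolar sirtuin, was at 64.1 against 39.9 FPKM and 57.5 against 27.6 FPKM, and SIRT1, which deacetylates p53, at 6.64 against 2.87 FPKM and 12.7 against 6.63 FPKM. SIRT6, which acts on histone H3 at telomeres, was at 14.0 against 10.4 FPKM in wtBRCA1 cells and 12.8 against 8.10 FPKM in vector cells. SIRT5, the mitochondrial desuccinylase, was at 9.71 against 6.68 FPKM in wtBRCA1 cells and 15.4 against 16.4 FPKM in vector cells.

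The remaining readers held no further call. PHIP, a substrate receptor of a cullin ligase, was at 4.85 FPKM with OTX-015 against 13.5 FPKM with DMSO in wtBRCA1 cells and 3.66 against 7.78 FPKM in vector cells (limma adjusted p = 0.112). IRAK1BP1, which overlaps PHIP on the opposite strand, was at 10.2 against 27.7 FPKM and 7.3 against 11.7 FPKM. The part of IRAK1BP1 reads in the PHIP values was not tested. BAZ1B, of the WICH remodeller, was at 10.3 against 21.6 FPKM and 6.34 against 13.2 FPKM, nearly the same proportion in each line (limma adjusted p = 0.131). BRPF3, a scaffold of the HBO1 complex, was at 4.79 against 19.1 FPKM in wtBRCA1 cells and 6.07 against 8.85 FPKM in vector cells (limma adjusted p = 0.142). BRD1 and BRPF1, the other scaffolds, were between 4.21 and 14.3 FPKM. BPTF, the NURF reader, was at 9.29 against 18.1 FPKM and 9.81 against 12.5 FPKM, and BAZ1A, of the ACF remodeller, at 33.2 against 19.3 FPKM and 26.3 against 19.3 FPKM. BAZ2A, the NoRC subunit that silences ribosomal DNA, was at 15.1 against 24.1 FPKM in wtBRCA1 cells and 28.2 against 23.3 FPKM in vector cells. BRD8, of NuA4, was at 123 against 75.5 FPKM and 78.6 against 68.8 FPKM, and the TFIID subunit TAF1 at 4.67 against 1.43 FPKM and 2.21 against 1.52 FPKM. The AAA ATPase ATAD2 was between 61.1 and 86.9 FPKM and its paralogue ATAD2B between 2.60 and 5.51 FPKM. YEATS4, of NuA4, was at 22.9 against 33.2 FPKM and 21.7 against 31.6 FPKM.

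With OTX-015, 20 of 52 genes were higher in both lines and 15 lower in both, beside 33% and 30.2% of all symbols. In single pairs, which have no test, 4 of 52 genes were at least 1 log2 unit higher and 7 lower with OTX-015 in wtBRCA1 cells, beside 13% and 13.4% of all symbols. In vector cells the counts were 4 and 6, beside 13% and 12.7%. The median difference over the 52 genes was 0.03 in wtBRCA1 cells and 0.22 in vector cells, against 0.00 over all symbols in each. At an unadjusted p under 0.05 in limma, 7 were higher and 9 lower, beside 12.5% and 10.2%. Without the line term no gene of the set passed, but over all 18304 symbols only 1 did.

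**Figure D2:**
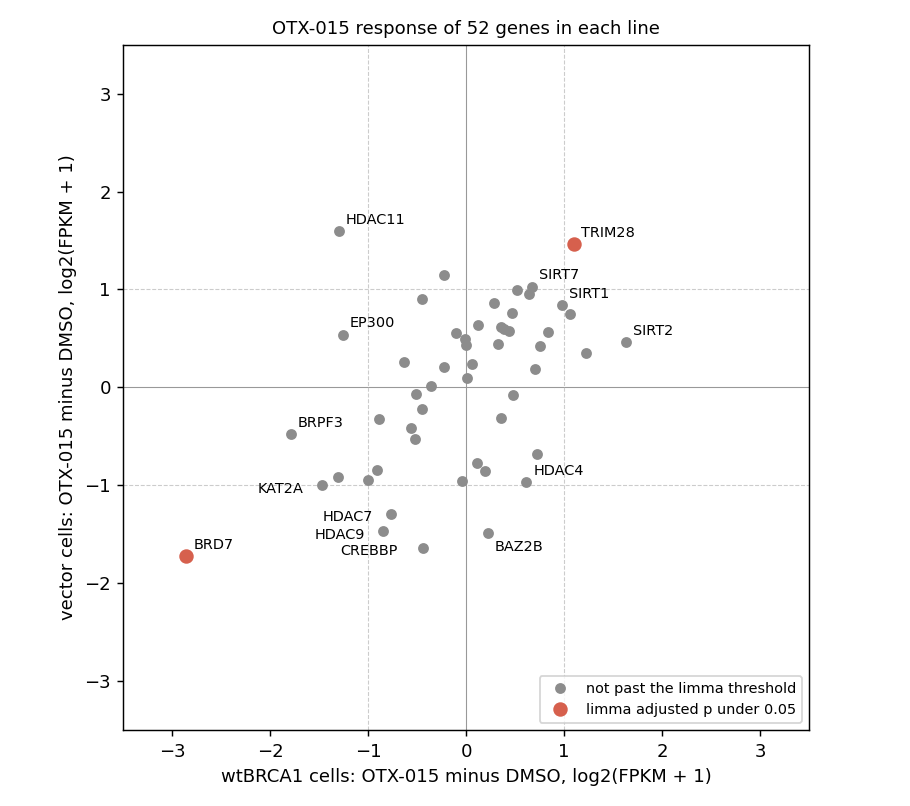
Log2(FPKM + 1) difference of OTX-015 minus DMSO in wtBRCA1 cells (x axis) and in vector cells (y axis) for the 52 tested genes, 1 point per gene, with dashed lines at 1 log2 unit and red for genes past the limma threshold. BRD7 lies at -2.86 and -1.72, TRIM28 at 1.10 and 1.46, and HDAC11 in the upper left at -1.30 and 1.60.

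The responses of 4 genes differed between the lines by at least 1.5 log2 units, and in each the signs were opposite. The difference of responses, wtBRCA1 minus vector, was -2.90 for HDAC11 and -1.80 for EP300, whose values are given above. It was 1.71 for BAZ2B, a bromodomain subunit of an ISWI remodeller, and 1.58 for HDAC4. BAZ2B was at 15.1 FPKM with OTX-015 against 12.8 FPKM with DMSO in wtBRCA1 cells and at 2.55 against 9 FPKM in vector cells. Of all symbols, 5.98% had a response larger by this much in wtBRCA1 cells and 5.81% in vector cells, so 2 of 52 in each direction is below the background. With 1 library per group these differences have no test. BRCA1 itself was at 2712 FPKM with OTX-015 against 171 FPKM with DMSO in wtBRCA1 cells, and at 40.8 against 37.2 FPKM in vector cells. Its part in these differences was not tested.

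The second comparison asked which of the genes differed between wtBRCA1 and vector cells under both treatments. In the same limma fit YEATS2 and SMARCA2 rose and KAT2A and SIRT3 fell, 2 of 52 in each direction. Over all symbols 4.75% rose and 3.34% fell. Restored BRCA1 cannot be told apart from anything else that sets these 2 lines apart, since there is only 1 line with it and 1 without. YEATS2 and SMARCA2 were also the genes at least 1 log2 unit higher under both treatments, beside 6.11% of all symbols, and KAT2A and SIRT3 those that much lower, beside 4.44%. In wtBRCA1 cells 23 of 52 were higher under both treatments and 14 lower, beside 34.5% and 29.7%.

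YEATS2, the scaffold of the ATAC acetyltransferase complex that reads acetylated histone H3 (ENSG00000163872, chromosome 3, 183697818 to 183812625, plus strand), was at 59.9 FPKM in wtBRCA1 cells against 17.8 FPKM in vector cells under OTX-015, and at 88.9 against 23.9 FPKM under DMSO. Both wtBRCA1 libraries lay above both vector libraries. YEATS2 rose by 1.77 ± 0.31 log2 (SE, limma adjusted p = 0.00983). YEATS2-AS1, its antisense transcript, was at 74.4 against 27.2 FPKM under OTX-015 and at 79.2 against 17.6 FPKM under DMSO, and rose as well (1.76 log2, limma adjusted p = 0.0124). The 2 cannot be told apart if strand was not used in counting.

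SMARCA2 (ENSG00000080503, chromosome 9, 1980290 to 2193624, plus strand) was at 95.7 FPKM in wtBRCA1 cells against 31.7 FPKM in vector cells under OTX-015, and at 52.9 against 21.1 FPKM under DMSO. It rose by 1.43 ± 0.31 log2 (SE, limma adjusted p = 0.0233). Quantile normalization gave 1.36 and ended the call (limma adjusted p = 0.0584). SMARCA4 was at 30.0 against 22.5 FPKM under OTX-015 and at 57.0 against 41.1 FPKM under DMSO and did not pass (limma adjusted p = 0.461).

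KAT2A (ENSG00000108773, chromosome 17, 42113108 to 42121358, minus strand) was at 8.31 FPKM in wtBRCA1 cells against 38.2 FPKM in vector cells under OTX-015, and at 24.8 against 77.6 FPKM under DMSO. It fell by 1.84 ± 0.33 on the log2 scale (SE, limma adjusted p = 0.0107). The 4 levels thus did not overlap by line. KAT2B was lower in both pairs too, by -1.42 log2 under OTX-015 and -0.97 log2 under DMSO, and did not pass (limma adjusted p = 0.15). RAB5C, which shares the KAT2A locus in the files, was at 78.1 against 159 FPKM under OTX-015 and 55.6 against 106 FPKM under DMSO (limma adjusted p = 0.0662).

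SIRT3, the main deacetylase of mitochondria (ENSG00000142082, chromosome 11, 215458 to 236931, minus strand), was at 3.13 FPKM in wtBRCA1 cells against 11.9 FPKM in vector cells under OTX-015, and at 1.98 against 6.65 FPKM under DMSO. It fell by 1.5 ± 0.38 on the log2 scale (SE, limma adjusted p = 0.0425). Median-of-ratios rescaling (limma adjusted p = 0.0555), quantile normalization (0.0685), pseudocounts of 0.1 (0.0602) and 5 (0.0863) and a filter of 5 FPKM (0.0912) each ended the call. PSMD13, a proteasome subunit gene that overlaps the 5′ end of SIRT3 on the opposite strand, fell as well, at 104 against 363 FPKM under OTX-015 and 119 against 404 FPKM under DMSO (-1.77 log2, limma adjusted p = 0.00328). The part of PSMD13 reads in the SIRT3 values was not tested.

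At an unadjusted p under 0.05 in limma, 8 genes were higher and 7 lower in wtBRCA1 cells, beside 13.1% and 10.2% of all symbols. Without the treatment term no gene of the set passed, while 36 of all symbols rose and 22 fell. Without the mean-variance trend none of the 4 line calls passed, with adjusted p of 0.0939 for KAT2A and YEATS2, 0.118 for SIRT3 and 0.127 for SMARCA2 in limma. In that fit 95 of all symbols rose and 60 fell.

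**Figure D3:**
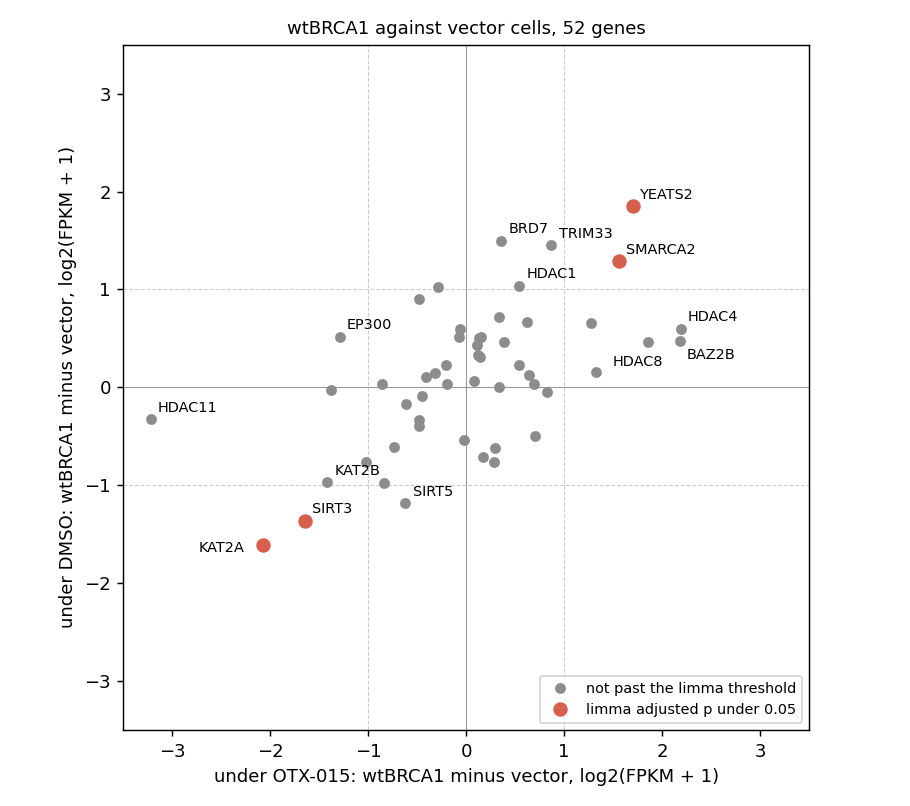
Log2(FPKM + 1) difference of wtBRCA1 minus vector cells under OTX-015 (x axis) and under DMSO (y axis) for the 52 tested genes, 1 point per gene, with dashed lines at 1 log2 unit and red for genes past the limma threshold. The 4 called genes are the only ones past 1 log2 unit in the same direction under both treatments, YEATS2 at 1.70 and 1.85, SMARCA2 at 1.56 and 1.29, KAT2A at -2.07 and -1.61 and SIRT3 at -1.65 and -1.36.

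Most chromosomal neighbours of 3 of these genes differed in the same direction. Of the 26 tested protein-coding genes within 1 Mb of YEATS2, 25 were higher in wtBRCA1 cells and 12 rose, with a median of 1.03 log2. The genes that rose include EIF2B5 (1.67 log2), AP2M1 (1.23) and DVL3 (1.56). Of the 38 around SIRT3, 31 were lower and 19 fell, with a median of -1.30 log2, and 1 rose, the interferon-induced IFITM2. CD151 (-2.31 log2), RPLP2 (-1.52) and TALDO1 (-1.02) were among those that fell. Of the 55 around KAT2A, 43 were lower, 16 fell and 7 rose, with a median of -0.91 log2. One of the 7 was BRCA1 itself, listed 923 kb away. Its reads may come from the restored BRCA1 and not from this locus, which was not tested.

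Over all 12661 protein-coding symbols with coordinates, 5.16% rose, 3.87% fell and the median was 0.04 log2. The medians around YEATS2 were 1.23 under OTX-015 and 0.87 under DMSO, those around SIRT3 -1.31 and -1.16, and those around KAT2A -0.88 and -0.92. Within these windows the named genes thus lie among neighbours that differ the same way in both treatments. Around SMARCA2 only 2 such genes were tested, PUM3 at -0.20 and VLDLR at 1.89 log2. These windows were examined after the values had been seen, and the part of a regional difference between the lines in the 4 calls was not tested.

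**Figure D4:**
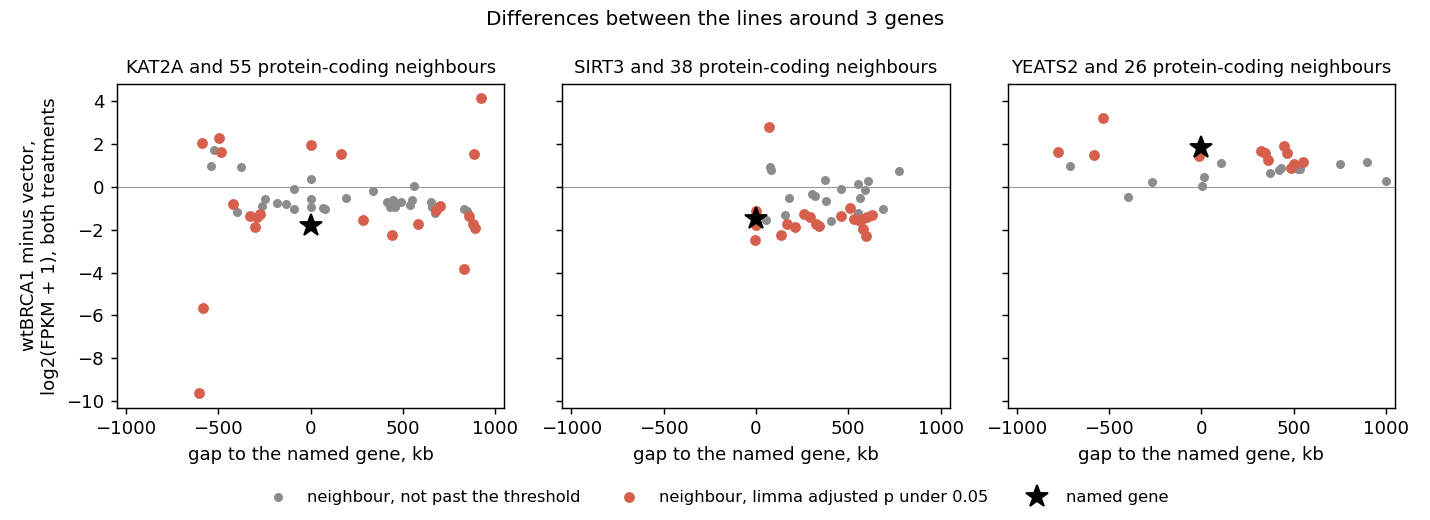
Line effect (wtBRCA1 minus vector over both treatments, log2(FPKM + 1), y axis) of the tested protein-coding genes within 1 Mb of KAT2A, SIRT3 and YEATS2, plotted by the gap to the named gene in kb (x axis). Each point is 1 gene, red where past the limma threshold, and the star is the named gene. Of the neighbours, 43 of 55, 31 of 38 and 1 of 26 lie below 0.

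Several genes differed between the lines by at least 1 log2 unit under 1 treatment and did not pass the fit. HDAC1 was at 305 FPKM in wtBRCA1 cells against 147 FPKM in vector cells under DMSO and at 302 against 208 FPKM under OTX-015 (0.79 ± 0.25 log2, SE, limma adjusted p = 0.091), and 25 of its 38 neighbours within 1 Mb were higher in wtBRCA1 cells, beside 52.5% of all protein-coding symbols. TRIM33 was at 19.8 against 6.62 FPKM under DMSO and at 24.3 against 12.8 FPKM under OTX-015 (limma adjusted p = 0.0786), with 11 of 12 neighbours higher. HDAC4, with 8 of 8 neighbours higher, was at 5.53 against 3.30 FPKM under DMSO and at 8.97 against 1.19 FPKM under OTX-015 (limma adjusted p = 0.105). BRD7 was at 116 against 40.4 FPKM under DMSO but at 15.1 against 11.6 FPKM under OTX-015, with 4 of 7 neighbours higher. Among the other genes this much higher, 5 of 8 neighbours were higher for HDAC8, 5 of 9 for BAZ2B and 26 of 46 for SIRT2. The counts were 3 of 3 for HDAC9 and 13 of 22 for BRPF3. Among genes this much lower, 24 of 26 neighbours were lower for BRPF1, 25 of 34 for EP300 and 13 of 16 for HDAC11. The counts were 2 of 3 for KAT2B, 25 of 48 for KAT8 and 4 of 8 for SIRT5, beside 47.5% of all protein-coding symbols. In single pairs without a test, 7 of 52 genes were at least 1 log2 unit higher and 7 lower in wtBRCA1 cells under OTX-015, beside 15% and 12.6% of all symbols. Under DMSO 6 were higher and 3 lower, beside 14.8% and 11.7%.

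The partners of these enzymes and readers were followed in lists of genes set by complex or pathway. Their counts stand beside 3.57% of all symbols that rose and 2.58% that fell for OTX-015, and 4.75% and 3.34% between the lines. For OTX-015, 5 of 35 corepressor genes fell and 1 rose. MTA3, of NuRD, was at 5.37 FPKM with OTX-015 against 19.8 FPKM with DMSO in wtBRCA1 cells and 9.39 against 39.4 FPKM in vector cells (-1.83 log2, limma adjusted p = 0.02). TBL1XR1, of the NCoR complex that holds HDAC3, fell by 2.40 on the log2 scale, with differences of -3.38 in wtBRCA1 cells and -1.41 in vector cells. DNTTIP1, of the MiDAC complex, fell by 1.31. Among 26 partners of the MYST enzymes 4 fell and none rose, and these include JADE2 (-1.97 log2), MSL3 (-1.63) and DMAP1 (-1.62), subunits of the HBO1, MSL and NuA4 complexes. The medians of these lists were -0.35 and -0.26 log2, against 0.03 over all symbols.

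Of 24 SAGA and ATAC genes 1 rose, ENY2 (0.83 log2), and of 19 other SWI/SNF subunits 1 fell, SMARCE1 (-1.68 log2), with medians of -0.06 and -0.14 log2. Of 15 other bromodomain and YEATS genes 1 rose, the BET gene BRD2. Acetyl-CoA supply had 3 of 9 genes that rose and none that fell, with a median of 0.07 log2. The mitochondrial citrate carrier SLC25A1 was at 196 FPKM with OTX-015 against 54.5 FPKM with DMSO in wtBRCA1 cells and 414 against 126 FPKM in vector cells (1.77 ± 0.26 log2, SE, limma adjusted p = 0.0078). ACLY, which splits citrate into acetyl-CoA, rose by 1.23 log2 and ACSS2, which makes acetyl-CoA from acetate, by 1.17 log2. Of 9 NAD genes NADSYN1 rose (1.40 log2), and of 9 other acetyltransferases none passed the limma adjusted p. The 17 list calls for OTX-015 numbered 8 with median-of-ratios scaling, 6 and 3 with pseudocounts of 0.1 and 5, 3 at a filter of 5 FPKM, 1 after quantile normalization and 0 without the trend. Fewer of all symbols were called in each of these settings as well, but the list calls dropped by a larger share. With a pseudocount of 5, 242 of all symbols rose and 153 fell, against 653 and 472 in the main fit.

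Between the lines, 4 list genes rose and 8 fell, beside 4.75% and 3.34% of all symbols. TAF10, shared by SAGA and TFIID, was at 98.2 FPKM in wtBRCA1 cells against 383 FPKM in vector cells under OTX-015 and at 81.4 against 203 FPKM under DMSO (-1.63 log2, limma adjusted p = 0.00847). The SWI/SNF subunits ACTL6A (1.56 log2) and SMARCD2 (1.65 log2) rose, 2 of 19, as did SP100 (2.03) and SP110 (1.84) among 15 readers. Of 9 acetyl-CoA genes 3 fell, PDHB (-1.46), PDHX (-1.29) and SLC25A1 (-1.13), and none rose. The NAD-related genes NNMT and NMNAT2 fell, 2 of 9. NNMT was listed at 0 in both wtBRCA1 libraries, against 5.73 FPKM under OTX-015 and 30.7 FPKM under DMSO in vector cells. TBL1X (-1.97 log2) fell among 35 corepressor genes and MSL1 (-1.29 log2) among 26 MYST partners. Without the trend none of the 12 passed, and a pseudocount of 5 or a filter of 5 FPKM gave 6 calls each. Fewer of all symbols were called in these settings as well. Median-of-ratios scaling ended the calls of PDHX, TBL1X and MSL1 (limma adjusted p = 0.0537, 0.0537 and 0.06), and quantile normalization those of the same 3 and of SP110 (0.0678, 0.0633, 0.0757 and 0.0711).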

How the data were processed

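The authors deposited FPKM per gene. The submitters' processing notes name TopHat2, Cufflinks and hg38, without their roles. Tool versions, annotation and scaling are not stated in the sources used here. The deposited FPKM files hold no counts, and low values showed no common step, so precision is unknown. Poly(A) libraries were strand-specific, per the labels' protocols.

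Gene types and coordinates came from GENCODE 29, which held 94.2% of the identifiers. Structural RNA genes of short length (7088) were not used, and rows sharing a symbol (75 symbols) were summed. Symbols at 1 FPKM or more in at least 1 library (18304) were analysed as log2(FPKM + 1), which understates changes of low genes. limma 3.58.1 in R 4.3.3 was fitted with line and treatment as terms and a mean-variance trend (1 residual and 8.39 prior degrees of freedom). The procedure was tested on simulated data, in which the estimated prior varied widely between runs. Single pairs had no test. Rose and fell refer to this fit.

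Values are given in full for genes past the threshold for either effect, for those at 1 log2 unit or more in both pairs, for those whose responses differ by 1.5 log2 or more, and for the highest and lowest of each role. The 3 list genes with the smallest p are named per list and effect. Other genes with values, and the neighbours, were added after their values were seen. The genes and lists were chosen with earlier results of these data known. Alternatives covered scaling, pseudocount, filter, trend, robust estimation, symbols, gene type, the other factor and each library left out. Python 3.11.15, pandas 2.3.3 and matplotlib 3.10.9 were used.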

Additional observations from a re-analysis of the deposited data

Results flagged for a closer look

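The response to OTX-015 of 4 of the 52 genes differed between the lines by at least 1.5 log2 units with opposite signs. With 1 library per group, this difference was not tested. The difference of responses, wtBRCA1 minus vector, was -2.90 for HDAC11, from -1.30 in wtBRCA1 and 1.60 in vector cells. It was -1.80 for EP300, from -1.26 and 0.54. It was 1.71 for BAZ2B, from 0.22 and -1.49, and 1.58 for HDAC4, from 0.61 and -0.97. A gap of this size in each direction was found for 2 of 52 genes, beside 5.98% of all symbols with the larger value in wtBRCA1 cells and 5.81% with the larger value in vector cells.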

How the results depend on the processing

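Over all symbols, 653 rose and 472 fell for OTX-015. These became 86 and 77 after quantile normalization and 3 and 1 without the trend. They became 1 and 0 without the line term, and 1594 and 2015 of 53221 with no filter. Between the lines 869 rose and 611 fell. These became 426 and 362 after quantile normalization and 95 and 60 without the trend. They became 36 and 22 without the treatment term, and 2168 and 1633 with no filter. Of the set, the 2 genes called for OTX-015 became 0 after quantile normalization, 0 without the trend, 0 without the line term and 5 with no filter on low values. The 4 called between the lines became 2 after quantile normalization, 0 without the trend, 0 without the treatment term and 7 with no filter. With each library left out in turn, which also needed the other term to be dropped, these counts and those of the list genes ranged from 0 to 0. No symbol of 18304 passed in any of these fits, in which the lone library is assumed to vary like the pair and the spread includes the other factor, so they say nothing of stability. Of the list genes, the 17 calls for OTX-015 became 8 with median-of-ratios scaling, 1 with quantile normalization, 6 and 3 with pseudocounts of 0.1 and 5, 3 at a filter of 5 FPKM, and 0 without the trend or the line term. The 12 line calls became 6 with a pseudocount of 5, 24 with no filter, 6 at a filter of 5 FPKM, 20 over protein-coding genes only, and 0 without the trend or the treatment term. Where the list counts dropped, the calls over all symbols dropped as well, for OTX-015 by a smaller share. The 11 genes at 1 log2 unit or more for OTX-015 in wtBRCA1 cells became 6 with a pseudocount of 5, and the 10 in vector cells became 17 and 5 with pseudocounts of 0.1 and 5.

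The median over the genes for OTX-015 in wtBRCA1 cells, 0.03, turned to -0.02 with median-of-ratios scaling, -0.04 with quantile normalization and -0.28 percentile units in ranks. In vector cells it was 0.14, 0.18 and 0.94. Between the lines it was 0.09, 0.04 and 0.42 under OTX-015, and 0.09, 0.09 and 0.79 under DMSO. The cause of these changes was not tested. Alternatives were computed for 16 genes per effect, those past the threshold or past 1 log2 unit in both pairs and the list genes named. None of their values changed sign. Of 176 values with a test for OTX-015, 77 lost the call and 2 gained it, and of 175 for the line, 59 lost it. No pairing by replicate was possible because each group has 1 library and the labels give no replicate number. The fit with both terms already compares the treatments within each line. Depth is unknown, so low levels such as KAT6B carry an unknown counting error.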
